A study of Homo sapiens with 18 samples.

Results

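The genes of DNA replication and mitosis were followed in 2 human multiple myeloma lines that share an origin, MM1R, which is resistant to glucocorticoids (GC), and MM1S, which is sensitive to them. The genes were chosen by symbol, 22 for replication and 23 for mitosis, and all 45 were found among the 43735 genes counted and passed the low-count filter that kept 14281 genes. Each line was sequenced untreated, after 5 µM RSL3 for 3 h, and after 2 µM ferrostatin-1 (Fer-1) for 2 h followed by the same RSL3 treatment, with 3 libraries in each of the 6 groups. RSL3 is an inhibitor of the lipid peroxidase GPX4 that starts ferroptosis, an iron-dependent cell death, and Fer-1 is a radical-trapping compound that blocks lipid peroxidation. The replicates were passages, 4, 6 and 7 of MM1R and 16, 22 and 23 of MM1S, and each passage gave an untreated, an RSL3 and a Fer-1 plus RSL3 library. No group received Fer-1 without RSL3. Both lines are permanent cultures, so the libraries measure the spread between passages of a culture and not between donors.

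Replication genes build and fire the machinery that copies DNA in S phase. The MCM helicase is loaded at origins by CDC6 and CDT1, CDC45 and the GINS proteins activate it, polymerases with the PCNA clamp extend the new strands, and RRM1, RRM2 and TYMS supply nucleotides. Cyclin E with CDK2 and the E2F factors start the program at the passage from G1 into S phase. Mitosis genes are made mostly in G2 and M phase: cyclin B with CDK1, CDC25 phosphatases and PLK1 drive entry, the BUB1, BUB1B and TTK kinases hold the spindle checkpoint until CDC20 opens the way to anaphase, and kinesins, Aurora kinases and centromere proteins move the chromosomes. As background, S phase genes are known for E2F sites in their promoters, and G2 and M phase genes for a cell cycle homology region (CHR) next to CCAAT boxes.

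The promoters of the members carried this difference between both gene classes, and 6 windows are printed to show the letters behind the genes described most. Each window runs from 250 bases before to 50 bases after an annotated RefSeq start in GRCh38.p14, and is written 5′ to 3′ along the gene's strand. Capitals mark exact matches on either strand to an E2F motif (TTTGGCGC, TTTCGCGC, TTTCCCGC or TTTGCCGC), a CHR motif (TTTGAA or TTCGAA) or CCAAT. In MCM7 an E2F match and a CCAAT match share 1 letter. MCM7 has 3 windows in the table, of which the one with E2F matches is shown.
MCM7 (chr7:100101348-100101647, minus strand): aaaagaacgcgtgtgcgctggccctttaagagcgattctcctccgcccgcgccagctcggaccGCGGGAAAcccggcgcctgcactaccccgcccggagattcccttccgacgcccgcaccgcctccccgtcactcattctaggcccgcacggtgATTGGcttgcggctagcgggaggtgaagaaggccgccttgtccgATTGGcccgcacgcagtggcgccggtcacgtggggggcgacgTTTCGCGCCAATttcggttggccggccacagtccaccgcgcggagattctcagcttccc
E2F1 (chr20:33686336-33686635, minus strand): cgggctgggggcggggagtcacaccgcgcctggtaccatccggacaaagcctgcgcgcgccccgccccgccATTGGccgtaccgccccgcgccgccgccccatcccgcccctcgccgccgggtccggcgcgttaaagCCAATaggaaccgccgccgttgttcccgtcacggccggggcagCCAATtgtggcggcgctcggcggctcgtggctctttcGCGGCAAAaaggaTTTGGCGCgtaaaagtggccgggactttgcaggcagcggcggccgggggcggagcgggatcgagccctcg
CCNE1 (chr19:29811741-29812040, plus strand): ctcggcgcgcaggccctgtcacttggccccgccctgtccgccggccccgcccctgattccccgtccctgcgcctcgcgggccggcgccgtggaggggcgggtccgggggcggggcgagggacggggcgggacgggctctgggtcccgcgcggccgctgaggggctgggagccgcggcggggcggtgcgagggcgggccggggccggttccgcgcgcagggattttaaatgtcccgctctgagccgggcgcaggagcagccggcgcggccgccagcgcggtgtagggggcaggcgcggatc
PLK1 (chr16:23678639-23678938, plus strand): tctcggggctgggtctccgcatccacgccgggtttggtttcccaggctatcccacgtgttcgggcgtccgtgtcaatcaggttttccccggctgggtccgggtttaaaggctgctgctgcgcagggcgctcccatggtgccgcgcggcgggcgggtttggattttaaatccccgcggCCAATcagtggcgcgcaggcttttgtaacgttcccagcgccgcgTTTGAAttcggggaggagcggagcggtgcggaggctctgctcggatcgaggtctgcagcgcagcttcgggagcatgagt
CDC20 (chr1:43358731-43359030, plus strand): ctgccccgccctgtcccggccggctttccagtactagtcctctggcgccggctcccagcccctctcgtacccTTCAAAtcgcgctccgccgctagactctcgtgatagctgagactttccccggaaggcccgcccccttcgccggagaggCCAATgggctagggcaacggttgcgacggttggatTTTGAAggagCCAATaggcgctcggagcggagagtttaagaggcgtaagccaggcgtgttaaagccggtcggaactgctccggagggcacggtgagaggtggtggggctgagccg
TOP2A (chr17:40417847-40418146, minus strand): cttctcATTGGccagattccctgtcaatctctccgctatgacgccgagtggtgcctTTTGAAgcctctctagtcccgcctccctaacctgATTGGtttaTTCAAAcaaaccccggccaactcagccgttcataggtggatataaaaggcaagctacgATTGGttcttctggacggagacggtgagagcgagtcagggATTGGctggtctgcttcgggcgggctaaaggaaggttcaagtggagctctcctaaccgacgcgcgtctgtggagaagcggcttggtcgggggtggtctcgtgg
E2F matches were found for 14 of the 18 replication genes with a window (77.8%), for 2 of 19 mitosis genes (10.5%, CDK1 and CENPA) and for 3.99% of all 27305 genes in the table. CHR matches were found for 2 of 18 replication genes (11.1%) and 13 of 19 mitosis genes (68.4%), against 19.5% of all genes. CCAAT was in a window of 13 replication genes (72.2%), of 17 mitosis genes (89.5%) and of 39.7% of all genes. A CHR and a CCAAT match stood together in a window of 2 replication genes (11.1%) and 12 mitosis genes (63.2%), against 7.85% of all genes. The CCNE1 window held none of these letters, and neither did that of CENPE. These matches describe letters in a window and not bound sites. For 8 members (MCM4, MCM5, CCNE2, CDK2, AURKA, TTK, BIRC5 and TPX2) the table had no window, so their promoters were not searched.

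Libraries held 17635438 to 19368343 counts, and the members took 0.476 to 1.11% of them. All 6 plasma cell markers were expressed in every library, with SDC1, IRF4, PRDM1 and XBP1 at 344.1 to 1649 CPM (counts scaled to a common library size), TNFRSF17 at 151.1 to 475.5 CPM and CD38 at 41 to 142.9 CPM. Of 10 markers of T, myeloid, epithelial, fibroblast, endothelial and erythroid cells, 5 passed the low-count filter. Genes that are nearly silent in 1 line were used to place each library on a scale from 0, the level of its own line, to 100, that of the other line. The Fer-1 plus RSL3 library of MM1R passage 6 stood at 49.2 over 13 such genes, while the other 17 libraries lay between -0.442 and 0.215 over 13 to 25 genes. The main results that use this library are also given without it. The RSL3 libraries of a line also differed in their response markers, and the markers ordered the passages differently. In MM1S, passage 16 was the highest for 6 of 8 markers. In MM1R, passage 7 was the highest for 6 of 8 and passage 4 for 1, MT2A. The heme-degrading enzyme HMOX1 stood at 236.8, 243.2 and 1404 CPM after RSL3 in MM1R passages 4, 6 and 7 and at 2298, 310.2 and 434.5 CPM in MM1S passages 16, 22 and 23. The metallothionein MT2A was at 731.6 CPM after RSL3 in MM1R passage 4 and 1101 CPM in MM1S passage 16, and at 6.72, 252, 56.1 and 22.2 CPM in MM1R passages 6 and 7 and MM1S passages 22 and 23. In untreated cells it stood at 0.52 to 1.91 CPM.

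Levels of the members in untreated cells covered a wide range. Per kilobase of all annotated exons, PCNA, the sliding clamp, had the highest value at 149.5 ± 35.7 CPM in MM1R and 166.3 ± 26.4 in MM1S (SD, n = 3). It was followed by MCM3, a helicase subunit, at 102.5 ± 8.9 and 117.4 ± 13.3, and by RRM2, the small subunit of ribonucleotide reductase, at 98.6 ± 34.9 and 116.8 ± 37. MCM3 and RRM2 did not differ beyond their spread. This order depends on the exon length used, 1403 bases for PCNA and 9153 for RRM2. Not scaled by length, RRM2 stood at 902.7 CPM in MM1R and 1069 in MM1S, and PCNA at 209.7 and 233.3. At the low end stood cyclin E2, CCNE2, at 0.465 CPM per kilobase in MM1R and 0.854 in MM1S, and E2F2, an activating E2F factor, at 0.205 and 0.353. Of the 45 members, 15 share exon bases with another gene. On the opposite strand, 39.9% of the exon length of TYMS lies in ENOSF1, 37% of CCNE2 in INTS8 and 9.24% of CCNA2 in EXOSC9. The share is 8.8% for CDC25C in FAM53C and 7.9% for MCM7 in AP4M1. It is 23.6%, 14.5% and 11.6% for MCM2, CDK2 and PLK1 in non-coding genes. On the same strand, 7.08% of CENPA lies in SLC35F6 and 5.38% of BUB1B in PAK6. Reads of opposite-strand pairs cannot be told apart, since the use of strand in counting is not given in the sources used here. For same-strand pairs the strand would not separate them.

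RSL3 was compared with no treatment to ask what 3 h of the ferroptosis inducer did to the cell cycle program. Averaged over both lines, the G1/S genes CCNE1 and E2F1, the helicase subunit MCM7 and the kinetochore motor CENPE fell, and no member rose at an FDR under 0.05 in the quasi-likelihood test of edgeR. These 4 of 45 members (3 of 22 replication and 1 of 23 mitosis genes) compare with 15.5% of all genes tested in either direction. An unadjusted p under 0.05 was found for 10 members (22.2%), against 30.2% of all genes. When each library was compared within its passage, 27 members passed, 25 lower and 2 higher, against 30.4% of all genes. They were 11 replication genes, 10 lower and RRM2 higher, and 16 mitosis genes, 15 lower and CDC25B higher. The members' share was thus below the share of all genes without the passage as a block and above it with it. Leaving out 1 library gave 2 calls in place of 4 for 8 libraries (the RSL3 libraries of passages 4, 16 and 22, the untreated ones of passages 6, 22 and 23, and the Fer-1 plus RSL3 ones of passages 7 and 22) and 8 calls without the RSL3 library of passage 23. With the block the 27 became 17 without the RSL3 library of passage 4 and 31 without that of passage 23. Shares of all genes called were not taken in fits that left out a library, here or below. The median log2 fold change was -0.15 for replication and -0.36 for mitosis genes, while that of all genes was near 0, and none of the 4 members called differed by more than 1 on the log2 scale. In bulk RNA, fewer cells in a phase and less RNA per cell cannot be told apart.

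**Figure D1:**
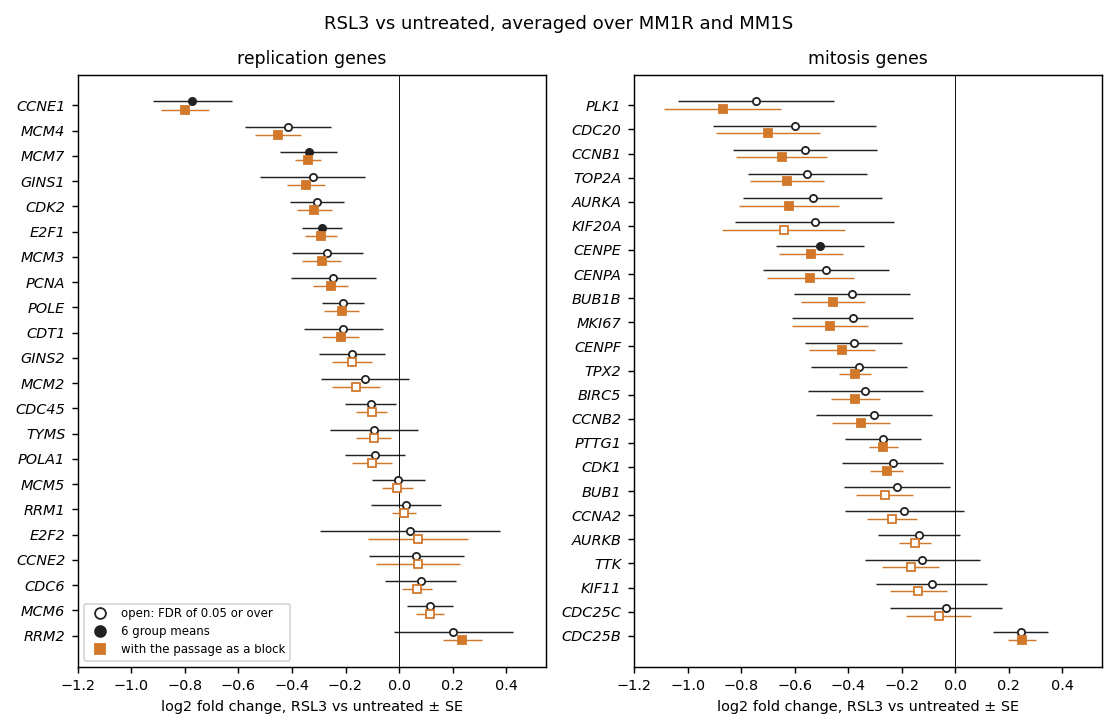
Log2 fold change (x axis) of each of the 45 members (y axis, replication and mitosis genes apart) after RSL3 against untreated cells, averaged over both lines. Points are estimates and bars 1 standard error, in black from the model of 6 group means and in orange with the passage as a block, and open points have an FDR of 0.05 or more; CCNE1 at -0.77 stands farthest to the left and CDC25B lies to the right at 0.24.

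Cyclin E1, CCNE1 (chr19:30302898-30315219 of hg19, plus strand), the partner of CDK2 at S phase entry, showed the clearest fall. In MM1R it stood at 42.7, 50.2 and 53.7 CPM in untreated cells of passages 4, 6 and 7 and at 21.9, 35.7 and 26.4 CPM after RSL3. In MM1S it stood at 59.9, 68.6 and 66.6 CPM in untreated cells of passages 16, 22 and 23 and at 28.2, 45.6 and 42.7 CPM after RSL3. Every RSL3 library lay below every untreated library of its line. The averaged log2 fold change was -0.77 (SE 0.146, FDR = 0.00229), a level 0.586 times the untreated one, and with the passage block the FDR was 7.9e-05. By line it was -0.80 in MM1R (SE 0.207, FDR = 0.0432) and -0.74 in MM1S (SE 0.206, FDR = 0.0537, or 0.00305 with the block). In MM1R the call held in 6 of 18 fits that each left out 1 library, with an FDR of up to 0.209 (without the RSL3 library of passage 4), and the averaged call held in all 18, with FDR values of 0.00119 to 0.00808.

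E2F1 (chr20:32263283-32274191, minus strand), the factor that switches on S phase genes, fell in the averaged comparison. Its untreated libraries stood at 157.5, 174.5 and 182.1 CPM in MM1R and at 142.5, 138.8 and 131.6 CPM in MM1S. After RSL3 they stood at 117.2, 140.6 and 150.4 CPM and at 106.5, 121.2 and 120.7 CPM. The RSL3 libraries lay below all untreated ones in each line, with an averaged log2 fold change of -0.29 (SE 0.0748, FDR = 0.0162), which passed in all 18 fits without 1 library. CDK2, the kinase bound by cyclin E, gave the same separation of libraries, from 74.8, 80.7 and 79.9 CPM to 49.5, 68.6 and 70.3 CPM in MM1R and from 115.1, 125.3 and 123.7 CPM to 93.5, 97.3 and 107.1 CPM in MM1S. Its averaged log2 fold change of -0.31 (SE 0.102) had an FDR of 0.0508, and of 0.00343 with the passage block.

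Among the helicase and polymerase genes, MCM7 (chr7:99689856-99699563, minus strand) had the smallest p. In MM1R it went from 366.4, 428.8 and 479 CPM in untreated cells to 296.8, 371.7 and 360.8 CPM after RSL3. In MM1S it went from 429.7, 516.5 and 486.2 CPM to 312.3, 387.6 and 410.2 CPM. The groups did not overlap in MM1S and overlapped in MM1R. The averaged log2 fold change was -0.34 (SE 0.107, FDR = 0.0427), with an FDR of 0.00046 with the block, and it passed in 7 of 18 fits without 1 library. POLE, the catalytic subunit of the leading-strand polymerase, gave -0.21 (SE 0.0771, FDR = 0.0751, or 0.0242 with the block). GINS1 (-0.32) and MCM4 (-0.42) passed with the block only (FDR = 0.0032 and 0.0019) and are named after their values were seen, as is RRM2, whose averaged value of 0.20 was on the higher side and passed with the block (FDR = 0.0259). The 11 genes of origin loading and the helicase had a median of -0.18 with 9 lower, and the 6 genes of clamp, polymerases and nucleotide supply a median of -0.09 with 4 lower.

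Of the mitosis genes, CENPE (chr4:104026506-104119602, minus strand), a kinesin that carries chromosomes to the spindle equator, fell. It stood at 64.8, 68.2 and 52.3 CPM in untreated MM1R and at 38.3, 58.1 and 56.3 CPM after RSL3, and these groups overlap. In MM1S it stood at 88.3, 96.1 and 102.8 CPM in untreated cells and at 39.7, 62.6 and 70.5 CPM after RSL3, with no overlap. The averaged log2 fold change was -0.50 (SE 0.164, FDR = 0.0463), and it passed in 6 of 18 fits without 1 library. TOP2A, the topoisomerase that untangles sister chromosomes, separated the libraries in both lines, from 312.9, 346.6 and 376.6 CPM to 170.0, 309.4 and 294.1 CPM in MM1R and from 412.8, 466.7 and 531.2 CPM to 139.8, 332.7 and 405.5 CPM in MM1S. Its averaged value was -0.55 (SE 0.222, FDR = 0.101, or 0.00485 with the block), with the passage 4 and passage 16 libraries far below the rest. CENPF, a kinetochore protein, gave -0.38 (SE 0.181, FDR = 0.168, or 0.0196 with the block).

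PLK1 and CDC20 showed how unevenly the passages answered. PLK1 (chr16:23688977-23701688, plus strand), a kinase of mitotic entry, went from 204.5, 273.1 and 314.7 CPM to 98.3, 205.3 and 148.0 CPM in MM1R. In MM1S it went from 243.2, 297.1 and 321.9 CPM to 47.1, 228.2 and 262.2 CPM. RSL3 was lower in every passage, by far the most in passage 16, and the groups overlapped in each line, with an averaged log2 fold change of -0.75 (SE 0.292, FDR = 0.093, or 0.0101 with the block). CDC20 (chr1:43824652-43828874, plus strand), the activator of the anaphase-promoting complex, is named after its values were seen. It went from 105, 157.4 and 215 CPM to 53.9, 135.1 and 96.5 CPM in MM1R and from 124.3, 152 and 185.3 CPM to 35.4, 129.8 and 170.4 CPM in MM1S, an averaged -0.60 (SE 0.304, FDR = 0.198, or 0.0164 with the block).

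CDC25B, a phosphatase that activates cyclin-dependent kinases at mitotic entry, went the other way. It stood at 187.5, 233.9 and 271 CPM in untreated MM1R and at 232.1, 270.1 and 315.2 CPM after RSL3. In MM1S it stood at 214.3, 264.7 and 285.1 CPM and at 288.3, 304 and 316.1 CPM. It was higher with RSL3 in all 6 passages, although the groups overlapped in MM1R. The share of all genes higher with RSL3 in all 6 passages was not taken. The averaged log2 fold change of 0.24 (SE 0.104) had an FDR of 0.121, and of 0.0034 with the block.

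**Figure D2:**
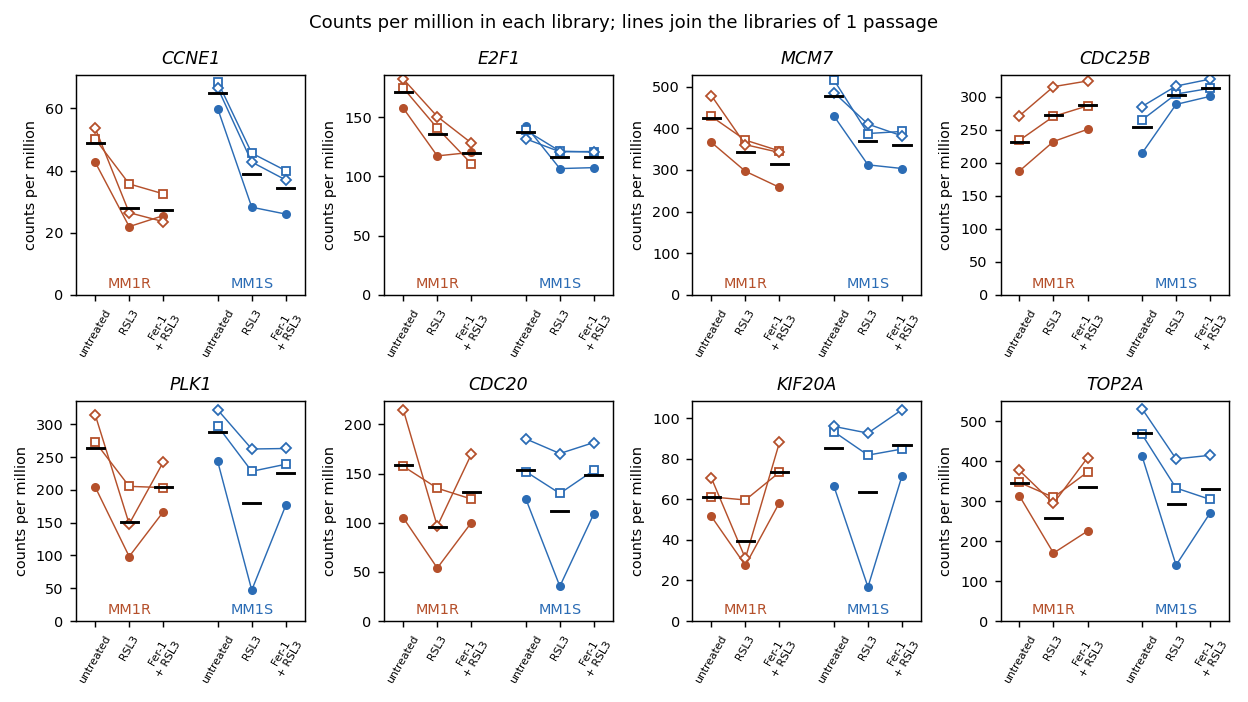
CPM (y axis) of CCNE1, E2F1, MCM7, CDC25B, PLK1, CDC20, KIF20A and TOP2A in the 18 libraries by group (x axis), with a circle, square and diamond for the lowest, middle and highest passage of a line and a black bar for the mean of 3. RSL3 libraries of CCNE1 and E2F1 lie below the untreated ones in both lines, and for PLK1 the passage 16 library at 47.1 CPM lies far below the others.

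Within each line fewer members passed. In MM1R only CCNE1 was called of the 45, against 3.36% of all genes, and with the passage block 8 members were called, 7 lower (MCM7, GINS1, E2F1, CCNE1, CDK2, TPX2 and PTTG1) and CDC25B higher, against 13.1%. In MM1S edgeR called 0 members, against 3.67% of all genes, and 7 members (15.6%) had an unadjusted p under 0.05, against 19.5% of all genes. DESeq2 called 2 members, and its share of all genes was not taken. With the block in edgeR 12 members were called, against 13.3%. These were MCM4, MCM7, GINS1, CCNE1, BUB1B, TOP2A, MKI67, BIRC5, CENPE, CENPF and TPX2, all lower, and CDC25B, higher. Without the RSL3 or untreated library of passage 4 the block called 1 member in MM1R, and without the RSL3 or untreated library of passage 7 it called 2. Without the RSL3 library of passage 16, which belongs to MM1S, it called 23 in MM1R. The cause of this rise was not tested, and no share of all genes was taken in that fit. In MM1S it called 1 without the untreated library of passage 16 and 3 without the RSL3 library of that passage. RSL3 libraries lay entirely below the untreated ones for 4 members in MM1R (12.3% of all genes tested) and for 7 in MM1S (12.3%). They did so in both lines for 4 members, E2F1, CCNE1, CDK2 and TOP2A, against 5.52% of all genes.

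The difference between the RSL3 effects of the lines was tested directly. By edgeR 0 members passed, with 0 at an unadjusted p under 0.05, and DESeq2 called 0. Of all genes 0% passed by edgeR, and 1.55% had an unadjusted p under 0.05. The smallest p belonged to CENPE, with a log2 fold change 0.45 higher in MM1R than in MM1S (SE 0.327, FDR = 0.9999 by edgeR), CENPF (0.37, SE 0.361) and POLA1 (0.21, SE 0.226). With these errors, differences between the lines of this size were not detectable.

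The passages gave the members' response in more detail. RSL3 libraries were below the untreated library of the same passage in all 6 passages for 22 of 45 members, 9 replication and 13 mitosis genes, against 14.8% of all genes. Without passages 4 and 16, whose MT2A was highest, the same count was 22, again 9 and 13, against 18.7%. Without passages 7 and 16, which were highest in their lines for HMOX1, SLC7A11, HSPA6, DNAJB1 and ATF3, it was 27 (11 and 16), against 22.3%. The median within-passage difference of the mitosis genes, in log2 CPM, was -0.61, -0.10 and -0.28 in MM1R passages 4, 6 and 7 and -0.998, -0.20 and -0.09 in MM1S passages 16, 22 and 23. For replication genes the medians were -0.14, -0.05, -0.21, -0.30, -0.18 and -0.04 in the same order. The median was thus below 0 in each passage for both classes, and farthest below 0 for mitosis genes in passages 16 and 4, while the median of all genes stayed between -0.02 and 0.02. Passage 16 was also the highest in MM1S for 6 of 8 response markers. Passage 4 was the highest in MM1R for MT2A alone and lay below passage 7 for the other 7 markers. The heat shock gene HSPA6 stood at 175.5, 92.5 and 1386 CPM in passages 4, 6 and 7 and at 4321, 64.5 and 82.8 CPM in passages 16, 22 and 23. The part of the response in the result was not tested. Without the RSL3 library of passage 16, the fitted mitosis median in MM1S was -0.03 in place of -0.36, and without that of passage 4 it was -0.10 in place of -0.31 in MM1R.

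**Figure D3:**
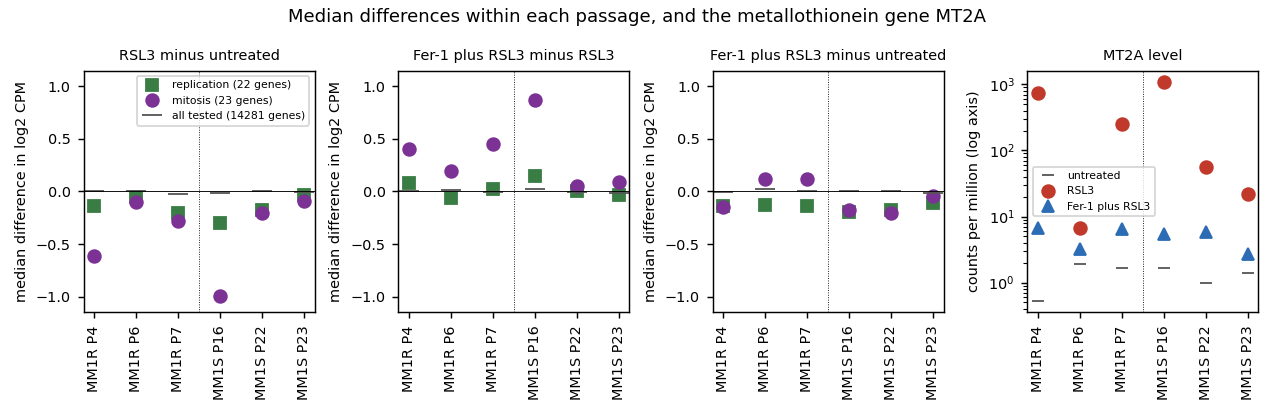
Median within-passage difference in log2 CPM (y axis) of replication genes, mitosis genes and all genes for each of the 6 passages (x axis), in panels for RSL3 minus untreated, Fer-1 plus RSL3 minus RSL3 and Fer-1 plus RSL3 minus untreated, and MT2A in CPM on a log axis in the last panel. The mitosis median reaches -0.998 in passage 16 and -0.61 in passage 4, where MT2A after RSL3 is 1101 and 731.6 CPM, although 7 of 8 response markers are higher in passage 7 than in passage 4.

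The earliest passage of a line also stood low without treatment. The passage 4 library was the lowest of its group for 40, 44 and 42 of 45 members in untreated, RSL3 and Fer-1 plus RSL3 cells, against 37.6, 38.3 and 36% of all genes. The passage 16 library was the lowest for 42, 42 and 43 members, against 39.9, 41.8 and 37.2% of all genes. RRM2 ran from 569.9 to 1207 CPM across untreated MM1R libraries and from 698.4 to 1362 CPM across MM1S libraries, a wider spread than any difference between its groups. What else differed between the passages was not tested.

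Fer-1 plus RSL3 was compared with RSL3 to ask whether the scavenger returned the members to their untreated level. Both comparisons share the RSL3 libraries, and the one with untreated cells shares the untreated libraries, so their values are given side by side and not correlated. By edgeR no member passed in MM1R (0, with 1 at an unadjusted p under 0.05, KIF20A), in MM1S (0, with 0) or averaged (0, with 4: CENPA, CDC25C, KIF20A and CENPF), and DESeq2 called 0 in each. Of all genes 0%, 0% and 0.119% passed by edgeR, and 6.17%, 5.75% and 12.8% had an unadjusted p under 0.05. With the passage block 0 members passed in MM1R (0.175% of all genes), 0 in MM1S (0.056%) and 3 on average (2.37%), all mitosis genes and higher: CDC25C at 0.50 (FDR = 0.0477), AURKB at 0.25 (FDR = 0.0482) and TPX2 at 0.26 (FDR = 0.0425). Without the MM1R passage 6 library that stood apart, the block called 0 members on average. Most RSL3 response markers stayed high with Fer-1. Against RSL3, averaged, 1 of 8 passed by edgeR, lower, 5 were on the higher side, and the median log2 fold change was 0.05. Against untreated cells 7 of 8 passed in each line, all higher, against 9.22% of all genes in MM1R and 4.61% in MM1S. HMOX1 stood at 748, 685.3 and 1463 CPM with Fer-1 in MM1R and at 1220, 1142 and 975.3 CPM in MM1S.

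The estimates of the 2 classes differed in size. The median log2 fold change against RSL3 was 0.35 in MM1R and 0.24 in MM1S for mitosis genes, and 0.02 in each line for replication genes, with all 23 mitosis genes on the higher side when averaged. Without the MM1R passage 6 library the mitosis median in MM1R was 0.30, and the replication median -0.04. Without the RSL3 library of passage 4 the mitosis median in MM1R was 0.15. Without the RSL3 library of passage 16 the mitosis median in MM1S was -0.03. Libraries with Fer-1 were above RSL3 of the same passage in all 6 passages for 12 members, all of them mitosis genes, against 8.05% of all genes. The count was 13 (12 mitosis genes) without passages 4 and 16, against 12.3%, also 13 (12 mitosis genes) without passages 7 and 16, against 12.2%, and 16 (15 mitosis genes) without MM1R passage 6, against 11%.

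KIF20A, a kinesin of the central spindle, had the largest averaged estimate of those with a small p. It stood at 27.4, 59.6 and 30.9 CPM after RSL3 in MM1R and at 58.3, 73.3 and 88.0 CPM with Fer-1, while untreated cells held 51.5, 61.2 and 70.5 CPM. In MM1S it stood at 16.8, 81.7 and 92.6 CPM after RSL3 and at 71.5, 84.7 and 104.1 CPM with Fer-1, while untreated cells held 66.4, 93.2 and 95.9 CPM. The RSL3 libraries of passages 4, 7 and 16 were low, and the others overlapped. The averaged log2 fold change was 0.67 (SE 0.296, FDR = 0.357 by edgeR). CENPA, the histone of the centromere, gave 0.57 (SE 0.235, FDR = 0.332), and in MM1R its Fer-1 libraries at 22.1, 26.1 and 35.7 CPM did not overlap the RSL3 libraries at 12.3, 21.9 and 17.5 CPM. CDC25C, a phosphatase of CDK1, gave 0.48 (SE 0.207, FDR = 0.345), from 13.1, 19.9 and 18.9 CPM to 17.9, 23.7 and 31.9 CPM in MM1R and from 9.79, 20.1 and 25.5 CPM to 21.9, 22.5 and 31.7 CPM in MM1S. Without the MM1R passage 6 library the averaged values were 0.67 for KIF20A, 0.59 for CENPA and 0.49 for CDC25C.

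CCNE1, E2F1 and MCM7 did not follow the mitosis genes. CCNE1 stood at 25.5, 32.5 and 23.6 CPM with Fer-1 in MM1R and at 26.0, 40.0 and 36.96 CPM in MM1S, which overlaps the RSL3 values. Against RSL3 its averaged log2 fold change was -0.11 (SE 0.146), that of E2F1 -0.09 (SE 0.0749) and that of MCM7 -0.08 (SE 0.107), and none had an FDR under 0.05. Without the MM1R passage 6 library they were -0.19, -0.07 and -0.12. RRM2 and TYMS, named after their values were seen, were lower with Fer-1 than with RSL3 in all 6 passages, MM1R passage 6 among them. The share of all genes lower in all 6 passages was not taken.

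**Figure D4:**
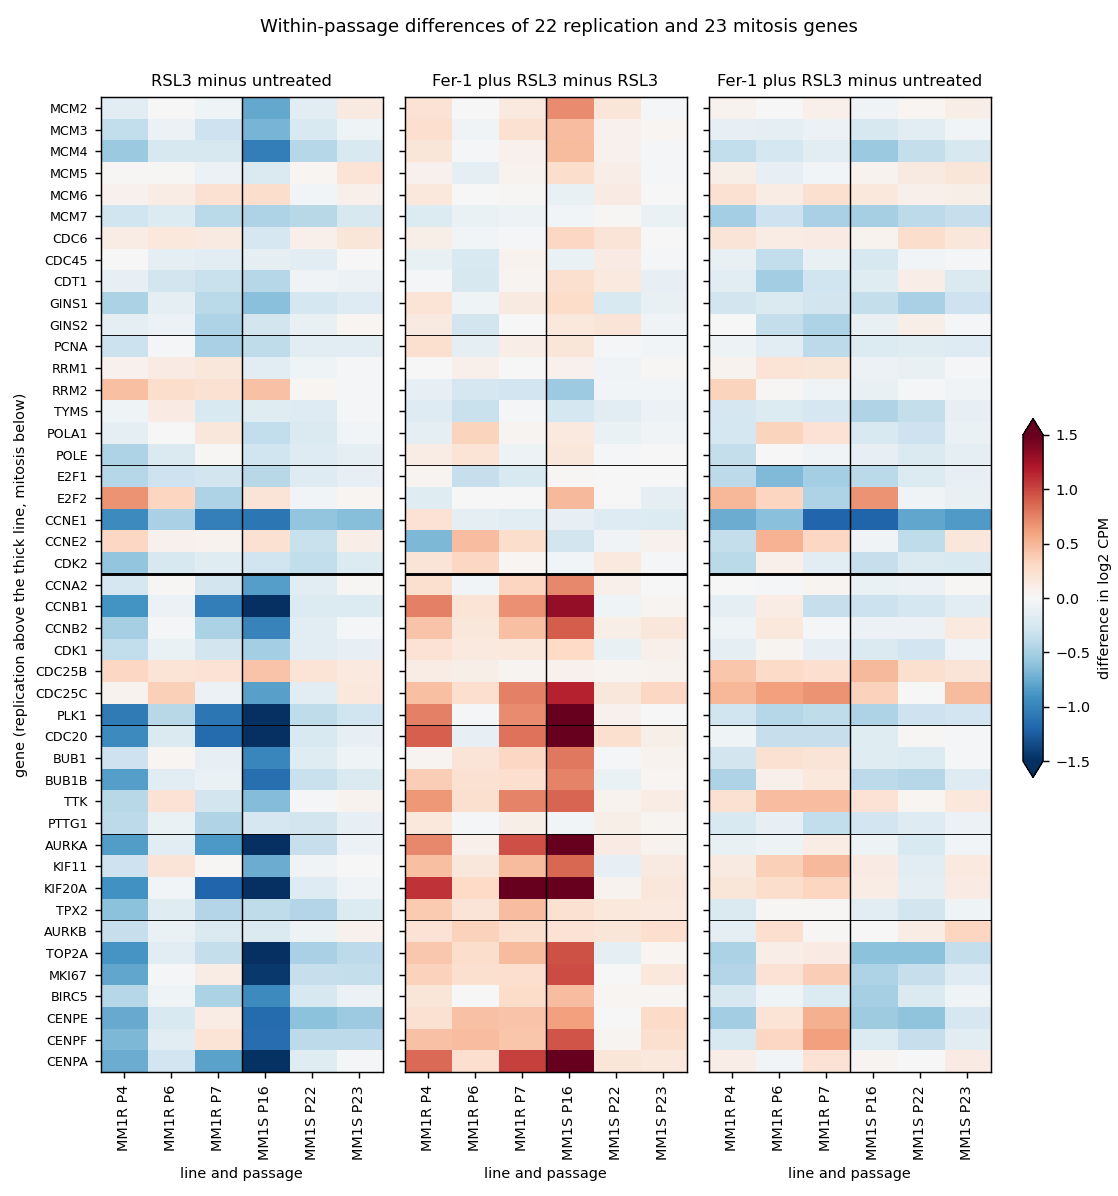
Heat map of the within-passage difference in log2 CPM (colour) of the 45 members (one axis, replication and mitosis genes apart) in the 6 passages (other axis) for RSL3 minus untreated, Fer-1 plus RSL3 minus RSL3 and Fer-1 plus RSL3 minus untreated. Mitosis genes in passage 16 hold the strongest values, with a median of -0.998 for RSL3 and of 0.88 for Fer-1 plus RSL3 against RSL3, and CCNE1 stays low with Fer-1.

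Fer-1 plus RSL3 was then compared with untreated cells. CCNE1 fell in both lines, by edgeR's test with a log2 fold change of -0.85 in MM1R (SE 0.207, FDR = 0.0185) and -0.92 in MM1S (SE 0.206, FDR = 0.0161). The MM1R call was lost without the Fer-1 plus RSL3 or untreated library of passage 7, the Fer-1 plus RSL3 library of passage 4 or the untreated one of passage 6, with an FDR of up to 0.0726, and the MM1S call without the Fer-1 plus RSL3 library of passage 16 or the untreated library of passage 22 or 23, with an FDR of up to 0.0885. E2F1 fell in MM1R (-0.52, SE 0.106, FDR = 0.00679), where its 120.2, 110.6 and 128.1 CPM lay below all untreated libraries. In MM1S it was at 107.3, 120.4 and 120.9 CPM, also below all untreated libraries, with -0.24 (SE 0.106, FDR = 0.217). MCM7 was at 258.2, 345.8 and 342 CPM in MM1R and at 303.5, 392.6 and 381.9 CPM in MM1S, below all untreated libraries in each line, with -0.43 (FDR = 0.0879, or 0.0013 with the block) and -0.41 (FDR = 0.139, or 0.0024 with the block).

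These were 2 members called in MM1R, against 9.22% of all genes, and 1 in MM1S, against 4.61%. With the passage block 7 were called in MM1R against 22.2% (MCM7, CDT1, E2F1, CCNE1 and PTTG1 lower, CDC25B and CDC25C higher) and 6 in MM1S against 14.7% (MCM4, MCM7, GINS1, TYMS and CCNE1 lower, CDC25B higher). Without the MM1R passage 6 library, the call of CCNE1 in MM1R held at -0.996 and that of E2F1 at -0.47 (FDR = 0.0385), MCM7 stood at -0.50 (FDR = 0.119), and the block called 4 members. Without the untreated library of passage 16 the block called 2 in MM1S. Medians were -0.14 in MM1R and -0.12 in MM1S for replication genes and 0.03 and -0.12 for mitosis genes, and without the MM1R passage 6 library they were -0.22 and -0.02 in MM1R. The Fer-1 plus RSL3 library was below the untreated one in all 6 passages for 13 members, 10 replication genes and the mitosis genes PLK1, BIRC5 and PTTG1, against 16% of all genes. Without MM1R passage 6 the count was 16, of which 11 were replication genes, against 19.1%. It was above the untreated one in all 6 passages for MCM6, CDC6, CDC25B and TTK. The share of all genes was not taken for this direction, so the count cannot be set against it.

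Untreated MM1R and MM1S cells were compared to ask how the lines differed before treatment. CDK2, CCNE2 and POLA1, the catalytic subunit of the polymerase that starts new strands, were lower in MM1R. CDK2 stood at the untreated values given above (log2 fold change -0.63, SE 0.144, FDR = 0.0106), and the call held in all 18 fits without 1 library. CCNE2 was at 1.98, 2.07 and 2.08 CPM in MM1R and 2.90, 4.597 and 3.76 CPM in MM1S (-0.88, SE 0.253, FDR = 0.0357), and POLA1 at 83.7, 84.9 and 81.8 CPM and 107.8, 128.5 and 127.5 CPM (-0.54, SE 0.160, FDR = 0.041). The 2 calls held in 13 and 8 of 18 such fits, and the count was 1 without an untreated library of passage 4, 6, 7, 22 or 23 and 6 without the RSL3 library of passage 16. These 3 of 45 members compare with 10.5% of all genes. The MM1R libraries lay below all MM1S libraries for 10 members against 16.7% of all genes, and above them for E2F1 (0.32, SE 0.106, FDR = 0.0669), against 15.6%. The median difference was -0.22 for replication and -0.27 for mitosis genes. The lines were grown at different passages, 4 to 7 against 16 to 23, and line and passage number cannot be told apart.

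Other genes of the same pathways were read from whole lists in the averaged RSL3 comparison, in which 15.5% of all genes passed, and 30.4% with the block. Of 47 further replication genes 3 passed, E2F8 (-0.85) and ORC2 (-0.39) lower and E2F3 (0.28) higher, and 18 passed with the block, 13 of them lower. Of 66 further mitosis genes 4 passed, all lower: CCNF (-0.94), ESPL1, the separase that cuts cohesin (-0.71), KIF18B (-0.56) and TROAP (-0.43). Of the 66, 58 had a negative estimate, and 38 passed with the block, all lower. Of 11 G1 cyclins, RB family members and G1 kinases 5 passed, with CDK6 (0.44) higher and CCND3 (-0.52), E2F4 (-0.37), RB1 (-0.31) and E2F5 (-0.60) lower, and 7 passed with the block. All 8 RSL3 response markers rose. Of 6 plasma cell markers 3 passed, SDC1 (-0.45) and TNFRSF17 (-0.53) lower and CD38 (0.54) higher, and 4 passed with the block. Of the 5 tested markers of other cell types COL1A1 passed (1.94), with 19.5 CPM in the RSL3 library of passage 16 and 0.452 to 3.93 CPM in the other 17. Its part in the members' values was not tested.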

How the data were processed

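RNA from 18 libraries was read from both ends (50 bp) on the BGISEQ-500 platform. The authors checked reads with FastQC 0.11.5, aligned them to hg19 with STAR 2.7.3a and deposited raw counts for 43735 genes, and, for 29553 genes, a table of normalized signal values (counts divided by DESeq2 size factors). The counting tool, annotation and strand setting are not given in the sources used here. All columns were mapped to samples, with 0 left over.

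Raw counts were tested in R 4.3.3 with edgeR 4.0.16: filterByExpr with a minimum count of 10 kept 14281 genes, which hold 99.9% of counts, and TMM factors were 0.864 to 1.06. A quasi-likelihood fit of 6 group means (12 residual degrees of freedom) gave 10 comparisons, with Benjamini-Hochberg adjustment over all genes tested and an FDR under 0.05 as the threshold. CPM use TMM-scaled totals, and log2 CPM a prior count of 2. Replicate libraries of a group differed beyond sampling noise (chi-square of 7.66 to 159 for each degree of freedom). The edgeR fit, with and without the passage as a block, was tried on simulated counts with changes set for RSL3 in MM1R only. The simulation held no library that stood apart, and recovery was not checked for the other comparisons.

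The labels number replicates by passage, and each passage holds every treatment, so the numbers pair libraries within a line. Deviations of libraries of 1 passage from their group means correlated at 0.0338 to 0.516 in MM1R and 0.216 to 0.681 in MM1S (9 pairs each). The block leaves 8 residual degrees of freedom. Other alternatives were DESeq2 1.42.0, RLE and upper-quartile scaling, no filter or a minimum count of 50, only the groups compared, other thresholds, limma 3.58.1 on log2 of the deposited normalized signal plus 1, and leaving out each library. The block without each library, and counts without doubted passages, were added after seeing the data.

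The members and lists were chosen with earlier results of these data known, so no test over a list is given. Members named with values were those with an FDR under 0.05, the 5 replication and 5 mitosis genes with the smallest p for the averaged RSL3 comparison, those whose libraries did not overlap in both lines, and the 3 with the smallest p in every other comparison. Exon lengths, over all annotated exons of a gene, and positions come from GENCODE on hg19 and promoters from RefSeq on GRCh38.p14.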

Additional observations from a re-analysis of the deposited data

Results flagged for a closer look

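RRM1, the large subunit of ribonucleotide reductase, moved in opposite directions in the 2 lines when Fer-1 plus RSL3 was set against untreated cells of the same passage. Its mean difference in log2 CPM was 0.148 in MM1R, higher in 3 of 3 passages, and -0.0728 in MM1S, lower in 3 of 3 passages, a gap of 0.221 between the lines. RRM1 stood at 206.9, 267.6 and 272.3 CPM in untreated MM1R and at 215.1, 309.2 and 308.5 CPM with Fer-1 plus RSL3, and at 307.7, 373.1 and 405.6 CPM and 290.3, 344.4 and 400.3 CPM in MM1S. The MM1R passage 6 library with Fer-1 plus RSL3, which stood at 49.2 on the scale between the lines, gave the largest of the MM1R differences, and RRM1 stood higher in untreated MM1S. Without that passage the MM1R mean was 0.118 and the gap 0.191. RRM1 was picked by this pattern itself, passages that agree within each line and are opposed between the lines. The pattern was sought among all members in both comparisons with Fer-1, and the share of all genes that show it was not taken. The smallest MM1S difference was -0.0191, in passage 23. This difference between the lines was not tested. For RSL3 against untreated cells, the difference between the lines was tested for RRM1 by edgeR's quasi-likelihood test and did not pass, at 0.20 on the log2 scale (SE 0.264, FDR = 0.9999).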

How the results depend on the processing

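The number of members called by edgeR's quasi-likelihood test depended on the model and on the low-count filter. With the passage as a replicate block it was 8 in MM1R and 12 in MM1S for RSL3 against untreated cells and 27 averaged, in place of 1, 0 and 4. It was 3 for Fer-1 plus RSL3 against RSL3 averaged, in place of 0, and 7 in MM1R and 6 in MM1S against untreated cells, in place of 2 and 1. Shares of all genes called rose too, from 3.36, 3.67 and 15.5% to 13.1, 13.3 and 30.4% for RSL3. They rose from 0.119 to 2.37% for Fer-1 plus RSL3 against RSL3 averaged, and from 9.22 and 4.61% to 22.2 and 14.7% against untreated cells. The block changed no other count of members called. For the lines no paired analysis was possible because passages are nested in lines.

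Without the low-count filter the counts were 7, 8 and 18 for RSL3 in MM1R, in MM1S and averaged, 2 and 8 for Fer-1 plus RSL3 against RSL3 in MM1R and averaged, 2 for Fer-1 plus RSL3 against untreated MM1S, and 5 for the lines. At an unadjusted p under 0.05 they were 3, 7 and 10 for RSL3, 1 and 4 for Fer-1 plus RSL3 against RSL3 in MM1R and averaged, 4 and 3 against untreated MM1R and MM1S, and 7 for the lines. In the same order, the shares of all genes at this p were 18.5, 19.5 and 30.2%, 6.17 and 12.8%, 24.6 and 18.8%, and 24.8%. With a log2 fold change over 1 required, 0 were called for RSL3 in MM1R or averaged, for Fer-1 plus RSL3 against untreated cells in either line, and for the lines. DESeq2 called 2 and 2 for RSL3 in MM1R and MM1S, and 5 for the lines. Upper-quartile scaling and the stricter filter each called 1 for RSL3 in MM1S. Without the filter, by DESeq2, and with these last settings, the share of all genes called was not taken. A changed count there is not a result about the members. The replication median for Fer-1 plus RSL3 against untreated MM1R, -0.14 with a spread over passages of 0.003, was -0.155 with the block, -0.161 by DESeq2, -0.161 with RLE factors, -0.136 with upper-quartile scaling, -0.16 without the filter, -0.14 with only the groups compared and -0.17 on the authors' values. That spread is the SD of 3 within-passage medians that lay close together, at -0.136, -0.130 and -0.135. Leaving out 1 library moved the fitted median over a wider range, from -0.26 to -0.051. The cause of the shifts between settings was not tested. No member called changed sign in the comparison that called it. Medians crossed 0 only on leaving out 1 library, as the ranges below show, and other scalings moved the median of all genes by at most 0.032.

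Leaving out 1 library at a time gave 0 to 2 calls for RSL3 in MM1R, 0 to 1 in MM1S and 2 to 8 averaged, 1 to 3 for Fer-1 plus RSL3 against untreated MM1R, 0 to 1 in MM1S and 1 to 6 for the lines. With the block as well, the ranges were 1 to 23, 1 to 16 and 17 to 31 for RSL3, 0 to 7 and 0 to 4 for Fer-1 plus RSL3 against RSL3 in MM1R and averaged, and 4 to 14 and 2 to 11 against untreated cells. Mitosis medians ranged from -0.40 to -0.10 in MM1R and -0.63 to -0.03 in MM1S for RSL3, from 0.15 to 0.55 and -0.03 to 0.49 for Fer-1 plus RSL3 against RSL3, from -0.14 to 0.20 and -0.27 to -0.00014 against untreated cells, and from -0.43 to -0.10 for the lines. Replication medians ranged from -0.28 to -0.046 and -0.27 to -0.012 for RSL3, from -0.13 to 0.13 and -0.11 to 0.12 for Fer-1 plus RSL3 against RSL3, from -0.26 to -0.051 and -0.23 to -0.043 against untreated cells, and from -0.34 to -0.13 for the lines. Where an arm keeps 2 libraries, its spread is taken from the shared fit. The share of all genes called was not taken in the fits that left out a library. Counting error was widest for CCNE2 and E2F2, the members with the lowest levels.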
